A study of Mus musculus with 97 samples.

Results

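The genes of cholesterol synthesis and uptake were followed in the mouse colon after short antibiotic courses. The group held 30 genes, chosen by name from the table of gene expression and kept where a gene reached 1 TPM (a level scaled for transcript length and library size) in at least 4 libraries. All 30 passed this filter, as did 17083 of the 20457 genes of the table, and all 30 reached 1 TPM in each of the 97 libraries. 19 of the 30 encode enzymes that build cholesterol from acetyl-CoA, 4 encode the sterol sensor and 7 encode proteins that move, store or export sterol.

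Cells make cholesterol from acetyl-CoA through mevalonate, farnesyl diphosphate, squalene and lanosterol. The transcription factor SREBP-2 (gene Srebf2) drives most genes of this route: when membranes hold little sterol, SCAP escorts SREBP-2 to the Golgi for cleavage, and when sterol is plentiful the INSIG proteins hold both in the endoplasmic reticulum. Cholesterol taken into a cell is moved by NPC1 and NPC2, stored as ester by SOAT1 and exported by ABCA1 and ABCG1.

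The mice were C57BL6/J, wild type and 8 to 12 weeks old. A dose was 100 µl of phosphate-buffered saline (PBS) with 2.5 mg of vancomycin, neomycin, metronidazole or ampicillin, or of all of them as a mix, for which the labels do not say whether the amount is that of each drug. Doses were given 2 times a day for 3 days and once on day 4, and colon was collected at 4 hours from the final one. The routes were oral gavage (PO), intraperitoneal (IP) and intravenous (IV) injection, and controls got PBS alone by each route. This gave 18 groups of 4 to 6 libraries: 4 for PBS-IP, Vancomycin-IP, Metronidazole-IV and Metronidazole-IP, 5 for Neomycin-IV, PBS-IV and Vancomycin-IV, and 6 for each other group. The labels do not say that replicates came from separate mice, so p-values measure only the spread between these samples.

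The table gives no read counts, so the depth behind each value is unknown. Between 18247 and 19884 genes were above 0 in a library, and no 2 libraries held identical values. Markers of colon epithelium and of smooth muscle were present in every library, but their balance varied: the mean log2(TPM + 1) of 18 smooth muscle genes ran from 7.67 to 12, and the genes of the mitochondrial genome took 3.52% to 27.5% of all TPM (median 8.35%). The columns of 12 libraries (2 each of PBS-IP, PBS-IV and Vancomycin-IV, 3 each of Vancomycin-IP and Vancomycin-PO) stood after the alphabetical run of the other columns, and calls that are lost without them are named beside their results. In whole tissue, fewer cells of a type and less RNA per cell cannot be told apart.

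Levels of the 30 genes spanned a wide range. The highest median over the 97 libraries was 183 TPM for Hmgcs1, which makes HMG-CoA, and the lowest was 9.51 TPM for Abcg1, a sterol exporter. Soat1, the enzyme that esterifies cholesterol, ranged 33.4-fold between libraries (3.68 to 122.8 TPM), and Dhcr7, the reductase that completes cholesterol, ranged 27.6-fold (6.54 to 180.3 TPM). Srebf2 ranged 2.54-fold (93.4 to 237.3 TPM). 8 of the 30 genes had their highest value in the same library, Neomycin-IP replicate 6.

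Each antibiotic was compared with PBS of the same route, and the mean of the 3 route differences was tested to ask what each drug did whatever its route. Changes are differences of log2(TPM + 1), which understate the change of low genes, and a gene was called where limma's adjusted p, over all 17083 genes, was under 0.05. Ampicillin gave the most called members of any antibiotic compared with PBS. 12 of the 19 synthesis enzymes fell and none rose, against 2.75% of all genes that fell. The 12 were Acat2, Hmgcs1, Aacs, Mvk, Mvd, Idi1, Fdps, Fdft1, Sqle, Lss, Cyp51 and Nsdhl. The median change of the 30 genes was -0.36, beside 0.07 for all genes, and the change was below 0 in 24 of the 30, beside 39.5% of all genes.

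**Figure D1:**
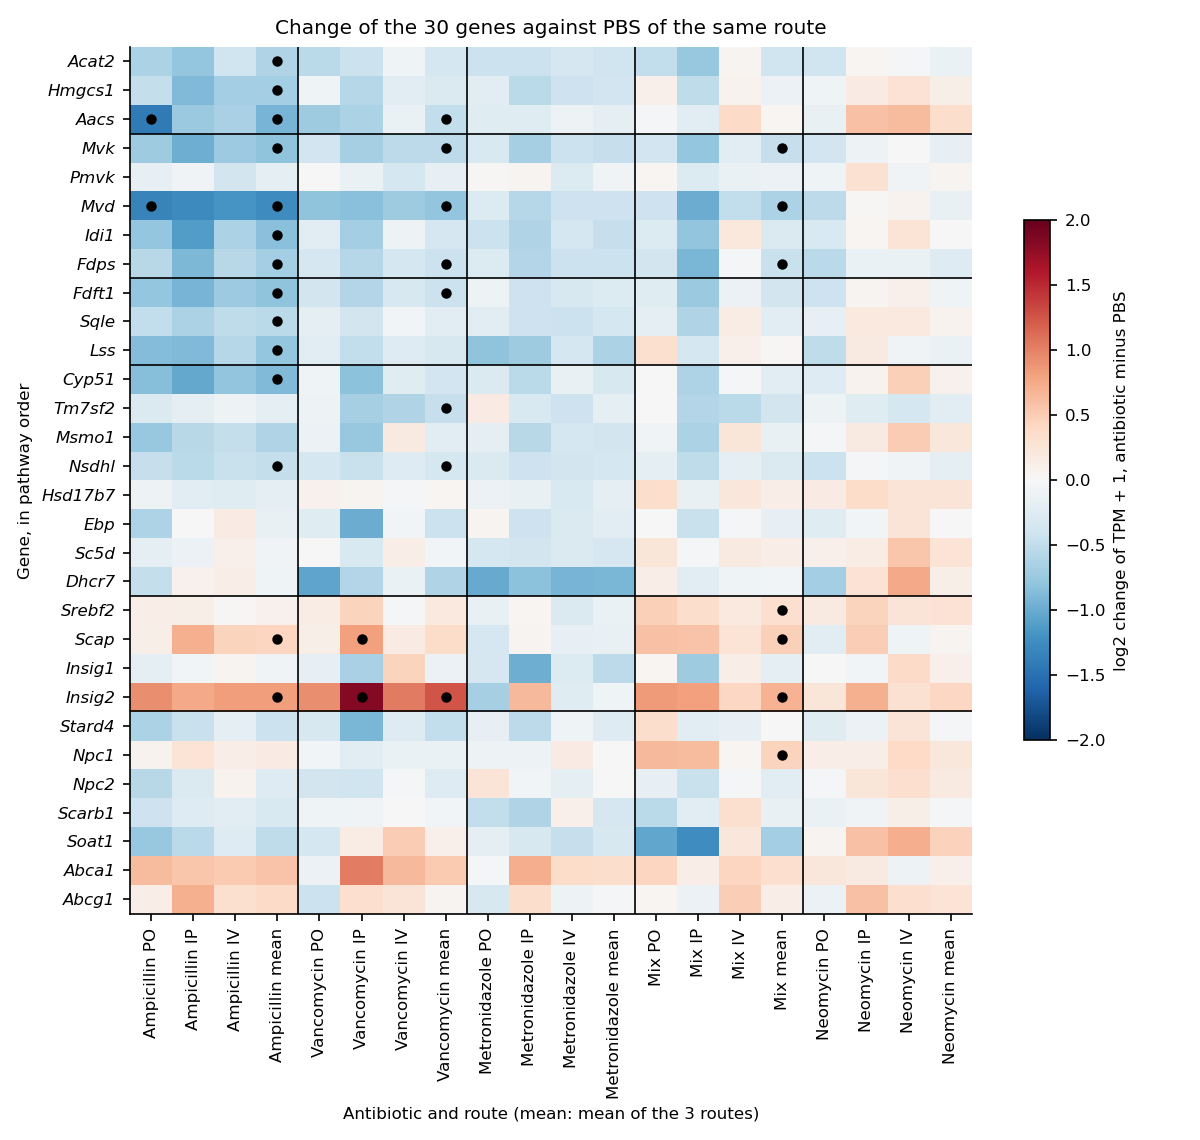
Log2 change of TPM + 1 for the 30 genes (rows, in pathway order, black lines between roles) against PBS of the same route, for 5 antibiotics by 3 routes and the mean of the routes (columns). Blue is lower and red higher than PBS, and dots mark an adjusted p under 0.05 (limma). The ampicillin columns are blue over most synthesis enzymes, with 12 lower and 2 higher genes marked for the mean of the routes.

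The largest fall was that of Mvd, the mevalonate diphosphate decarboxylase. With PBS it lay at 27.4, 50.8 and 77.5 TPM (lowest, median, highest of 6) by mouth, at 45.7, 64.8, 30.7 and 74.7 TPM by the peritoneum and at 40.7, 38.3, 17.3, 37.7 and 59.2 TPM by the vein. With ampicillin the lowest, median and highest were 11.4, 16.5 and 34.4 TPM by mouth, 15.02, 20.7 and 24.9 TPM by the peritoneum, and 10.2, 15.5 and 21.95 TPM by the vein. All 18 ampicillin libraries lay below the PBS median of 45.7 TPM. The IP groups did not overlap, while PBS-PO replicates 1 and 2 and PBS-IV replicate 4 lay within the range of the ampicillin group of their route. Mvd fell by 1.26 (SE 0.18, limma adjusted p = 1.3e-06): its mean went from 47.3 ± 17.6 TPM (SD, n = 15) with PBS to 18.7 ± 5.72 TPM (SD, n = 18).

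The first steps, from acetyl-CoA to mevalonate, fell in all 3 members. Acat2, which joins acetyl-CoA units, fell by 0.60 (SE 0.14, limma adjusted p = 0.00328) and Hmgcs1 fell by 0.68 (SE 0.15, limma adjusted p = 0.00184). Aacs, the cytosolic acetoacetyl-CoA synthetase that feeds ketone bodies into this route, ran from 36.1 to 120.4 TPM (median 68.0) in the 15 PBS libraries and from 13.2 to 59.4 TPM (median 34.3) in the 18 ampicillin libraries. The ranges overlapped, yet 11 ampicillin libraries were below the lowest PBS library and all 18 were below the PBS median. Aacs fell by 0.93 (SE 0.17, limma adjusted p = 0.000138).

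From mevalonate to farnesyl diphosphate, 4 of 5 enzymes fell. Mvk, the mevalonate kinase, ran from 16.3 to 50.6 TPM (median 29.9) with PBS and from 9.78 to 24.0 TPM (median 18.1) with ampicillin, with all 18 ampicillin libraries below the PBS median. It fell by 0.81 (SE 0.14, limma adjusted p = 0.0001). Mvd is described above, and Idi1, the isopentenyl diphosphate isomerase, fell by 0.84 (SE 0.17, limma adjusted p = 0.000871). Fdps, which makes farnesyl diphosphate, fell by 0.67 (SE 0.14, limma adjusted p = 0.0013): its mean went from 105.3 ± 29.7 TPM (SD, n = 15) with PBS to 65.4 ± 14.9 TPM (SD, n = 18). Pmvk, the kinase between Mvk and Mvd, changed by -0.20 (95% interval -0.39 to -0.01) and was not called (limma adjusted p = 0.193).

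All 3 enzymes from farnesyl diphosphate through squalene to lanosterol fell. Fdft1, the squalene synthase, ran from 55.9 to 146.5 TPM (median 86.5) with PBS and from 42.8 to 73.2 TPM (median 50.7) with ampicillin. 13 of the 18 ampicillin libraries were below the lowest PBS library. Fdft1 fell by 0.81 (SE 0.14, limma adjusted p = 7.47e-05). Lss, the lanosterol synthase, fell by 0.78 (SE 0.16, limma adjusted p = 0.00092) between mean levels of 37.6 ± 11.6 TPM (SD, n = 15) with PBS and 21.4 ± 5.87 TPM (SD, n = 18). Sqle, the squalene epoxidase, fell by 0.55 (SE 0.17, limma adjusted p = 0.0295), and it was not called without any 1 of PBS-IP replicates 1, 2 and 4, PBS-PO replicate 4 and PBS-IV replicate 5 (limma adjusted p up to 0.0715) or without the 12 late columns (change -0.64, limma adjusted p = 0.0562).

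Past lanosterol, 2 of 8 enzymes fell. Cyp51, the lanosterol demethylase that opens this stretch, fell by 0.88 (SE 0.19, limma adjusted p = 0.0012): its mean went from 108.3 ± 34.7 TPM (SD, n = 15) with PBS to 59.2 ± 20.2 TPM (SD, n = 18). Nsdhl, which removes the methyl groups at carbon 4 together with Msmo1, fell by 0.48 (SE 0.12, limma adjusted p = 0.00497). Msmo1 changed by -0.60 (95% interval -1.04 to -0.15, limma adjusted p = 0.0787) and was not called. The other 5, Tm7sf2, Hsd17b7, Ebp, Sc5d and Dhcr7, had changes from -0.19 to -0.07. The median change was -0.68 in the first role, -0.81 in the second, -0.78 in the third and -0.19 past lanosterol, a difference between roles that was not tested.

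**Figure D2:**
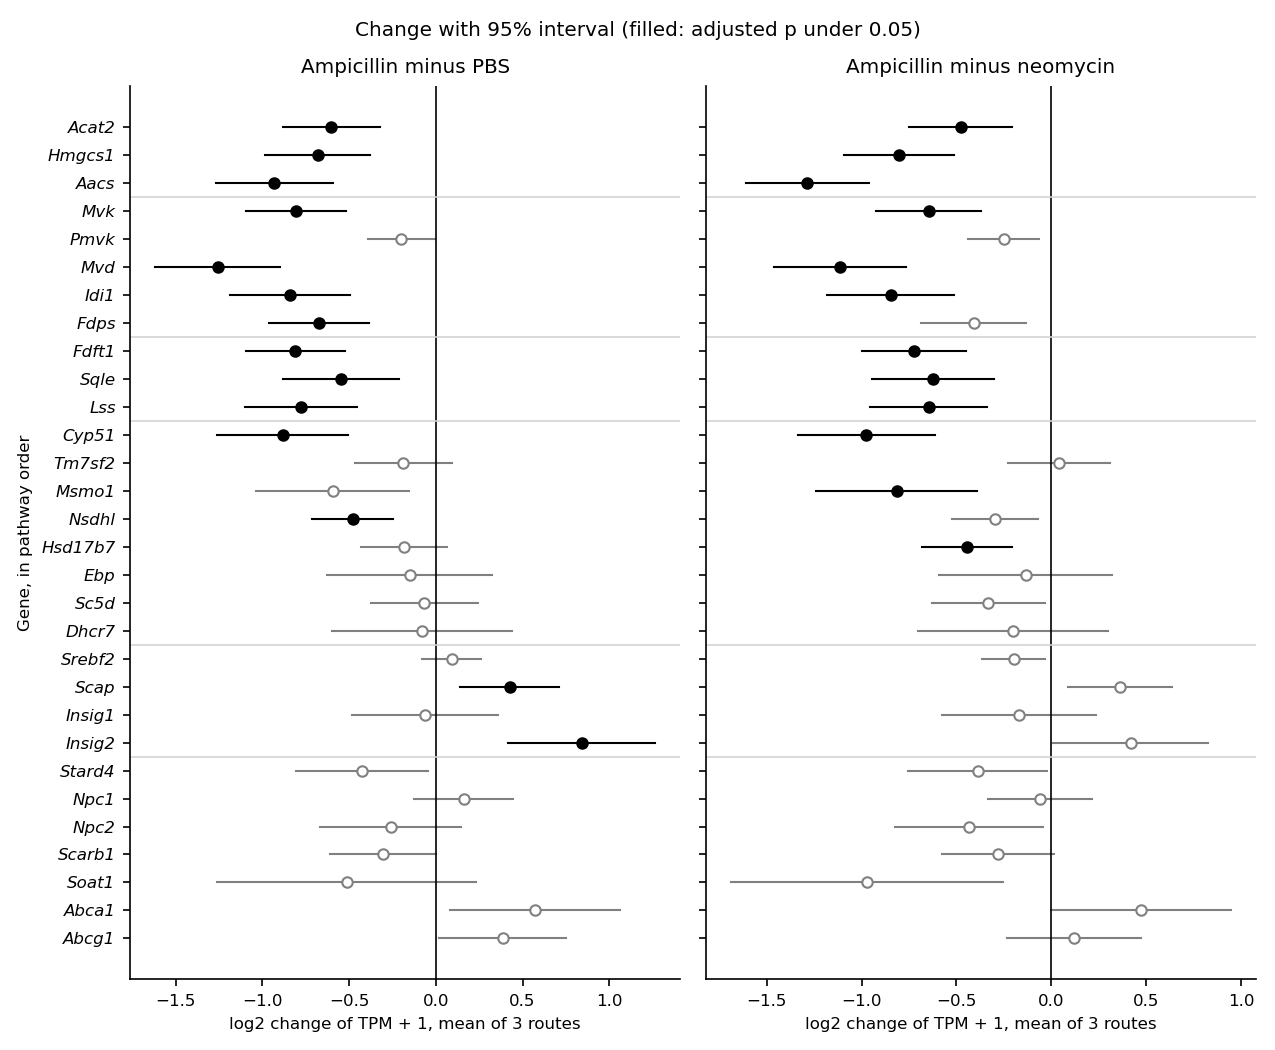
Log2 change of TPM + 1 with its 95% interval for the 30 genes in pathway order, for ampicillin minus PBS (left) and ampicillin minus neomycin (right), each the mean of 3 routes. Filled points have an adjusted p under 0.05 (limma). Each panel has 12 filled points left of 0, all of synthesis enzymes, and the left panel has 2 right of 0, Scap and Insig2.

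Of the 30 members 2 rose with ampicillin, near the 5.13% of all genes that rose. Both were among the 4 sterol sensor genes, none of which fell. Insig2, which holds SCAP in the endoplasmic reticulum, ran from 14.4 to 70.3 TPM (median 36.8) with PBS and from 24.6 to 105.5 TPM (median 66.4) with ampicillin, and 8 ampicillin libraries were above the highest PBS library. It rose by 0.84 (SE 0.21, limma adjusted p = 0.00691). Without the 12 late columns its change was 0.84 and its limma adjusted p 0.058. Scap rose by 0.43 (SE 0.14, limma adjusted p = 0.0487), and it was not called in 24 of the 33 fits that left out 1 library (limma adjusted p up to 0.101). Without the 12 late columns the change of Scap was 0.45 (limma adjusted p = 0.133). Srebf2 itself changed by 0.09 (95% interval -0.08 to 0.26) and Insig1, a target of SREBP-2 as well as its inhibitor, by -0.06 (-0.49 to 0.36).

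None of the 7 transport, storage and efflux genes was called with ampicillin. Abca1 changed by 0.57 (limma adjusted p = 0.136), Abcg1 by 0.39 (limma adjusted p = 0.179) and Stard4, a carrier of sterol in the cytosol, by -0.43 (limma adjusted p = 0.153). Soat1 changed by -0.52 with a 95% interval from -1.26 to 0.23. Scarb1, the receptor for high-density lipoprotein, and Npc1 and Npc2, which take cholesterol out of lysosomes, changed by -0.30, 0.16 and -0.26.

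**Figure D3:**
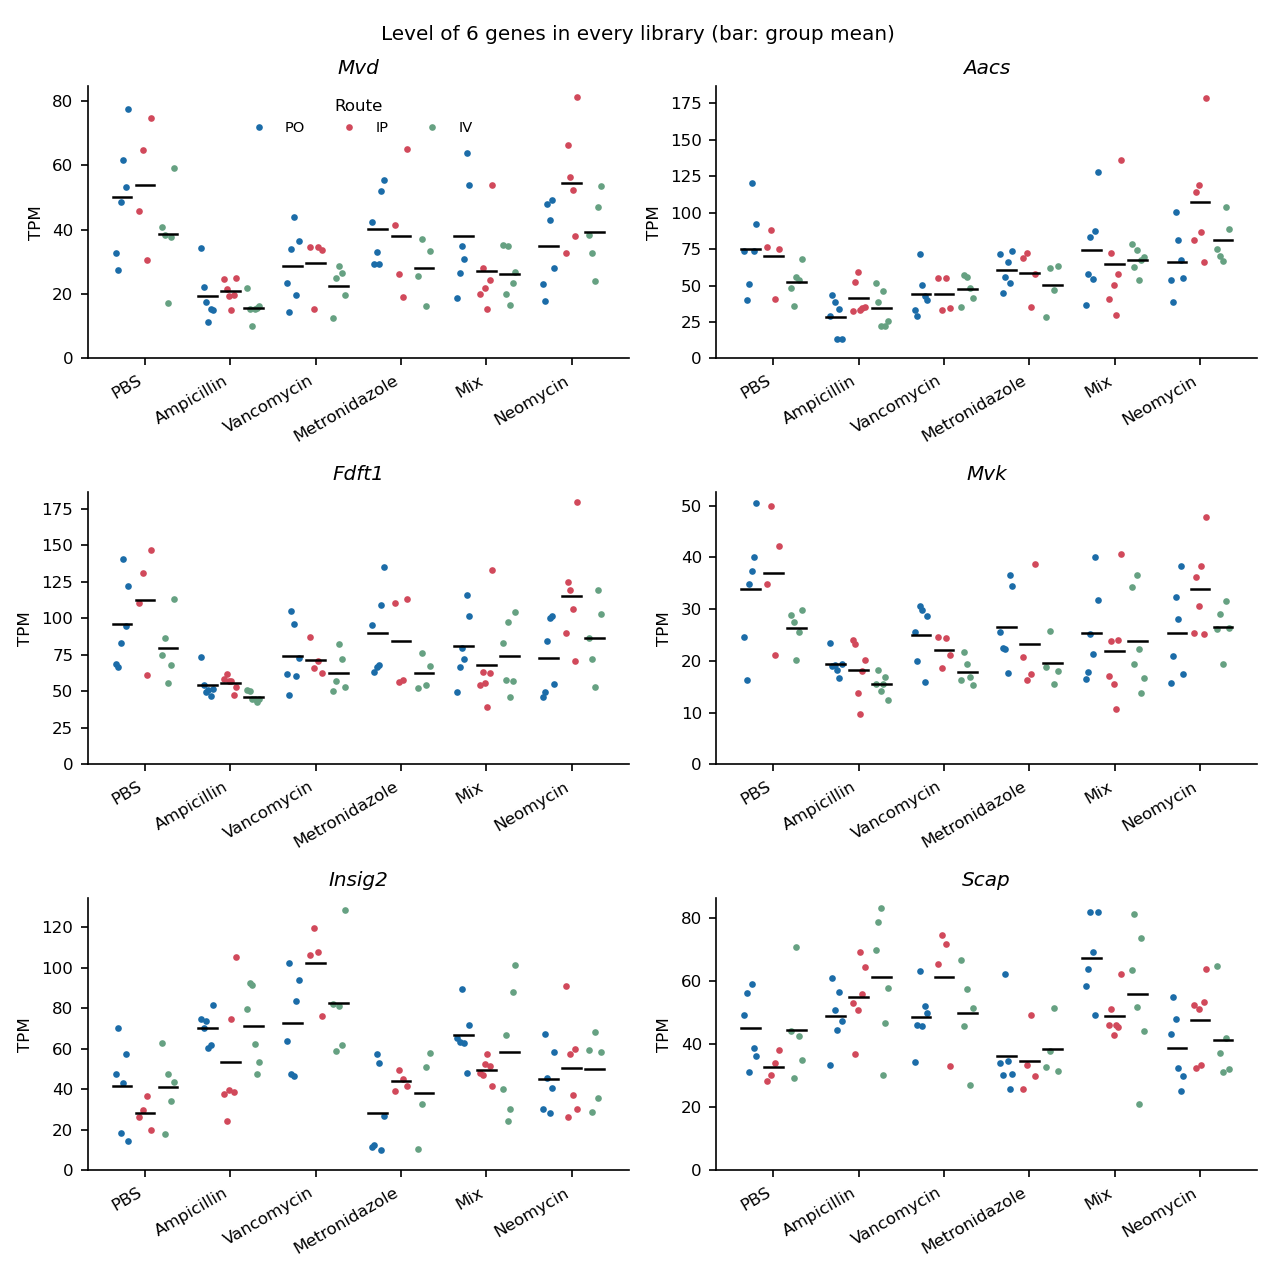
Level (TPM, linear axis from 0) of 6 genes in each of the 97 libraries, by treatment and route (blue PO, red IP, green IV), with bars at the group means. For Mvd, Aacs, Fdft1 and Mvk all 18 ampicillin libraries lie below the median of the 15 PBS libraries, and for Insig2 10 of the 15 vancomycin libraries lie above the highest PBS library.

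Within single routes few members were called, while with ampicillin most enzymes changed in the same direction by each route. The route comparisons of one drug share no library. Those of different drugs by one route share their PBS libraries, and the enzymes varied together within groups (median Pearson r of 0.65 between pairs, described below). The signs of the 19 enzymes are therefore not separate observations. With ampicillin, 16 of the 19 enzymes were below 0 in all 3 routes, and so were 17.8% of all genes. The 3 exceptions were Ebp, Sc5d and Dhcr7. With oral ampicillin Aacs fell by 1.41 (SE 0.28, limma adjusted p = 0.0056) and Mvd fell by 1.33 (SE 0.30, limma adjusted p = 0.0345), 2 of the 30 genes where 0.0702% of all genes were called. Leaving out PBS-PO replicate 4, or replicate 4 or 6 of Ampicillin-PO, ended the call of Aacs (limma adjusted p up to 0.108), and leaving out any 1 of replicates 3 to 6 of either group ended that of Mvd (up to 0.213). Neither was called when only these 2 groups were fitted (both 0.236).

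By the peritoneum, no member was called with ampicillin (0.492% of all genes were), while 14 of 30 had an unadjusted p under 0.05, beside 9.86% of all genes. Mvd changed by -1.27 (limma adjusted p = 0.0505), Mvk by -0.98 (0.0606), Fdft1 by -0.93 (0.0743) and Idi1 by -1.11 (0.0793). Without PBS-IP replicate 3, the lowest of the 4 PBS-IP libraries for Mvd, Mvk and Fdft1, 7 members were called. By the vein, no member was called either (0.082% of all genes were), with 12 of 30 at an unadjusted p under 0.05, beside 6.29% of all genes, and Mvd at -1.17 (limma adjusted p = 0.152).

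Some groups did not overlap their PBS group at all. In Ampicillin-IP every library was below every PBS-IP library for Mvd, Fdps and Lss, 3 of 30 members beside 0.931% of all genes. In Ampicillin-IV the same held for Mvk, Fdft1 and Nsdhl, again 3 of 30, beside 0.152% of all genes. In Ampicillin-PO no member was so separated. A test of whether ampicillin's change differed between routes called no member, and 0% of all genes (limma F test, smallest member adjusted p = 0.989, with no member at an unadjusted p under 0.05). The PBS groups likewise showed no member that differed between routes (0% of all genes, smallest adjusted p = 0.931).

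Promoters were read for the members, whether or not they were called, to show the sequence next to them. Member promoters on 1 chromosome were left out, a step not applied to the share over all promoters. What remained of the RefSeq table used here, on build GRCm38.p6, was 29 promoters of 23 of the 30 genes. The 250 bases before each start were searched on both strands for TCACNCCAC (a form of the sterol regulatory element bound by SREBP), CCAAT (bound by NF-Y) and GGGCGG (bound by Sp1). CCAAT was found in 19 of the 29 member promoters, beside 33.8% of all 32851 promoters, and GGGCGG in 22 of 29, beside 32.7% of all. The member counts include genes not called with ampicillin, such as Ebp, Sc5d and Dhcr7. The shares over all promoters were not limited to genes kept by the TPM filter. TCACNCCAC was found in 1 of the 29, that of Hmgcs1, and in 1.05% of all promoters. A match describes letters only, and no match says only that these letters are not in this window. Fdps, Fdft1, Sqle, Stard4, Npc1, Scarb1 and Abcg1 were not among the promoters read.

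5 promoters are shown, 4 of enzymes that fell with ampicillin and that of Insig2, which rose. Each line gives the 250 bases before the start, 5′ to 3′ on the gene's strand, with matches on either strand in capitals (ATTGG and CCGCCC are CCAAT and GGGCGG read on the other strand), and no capitals overlap another match. Hmgcs1 lies at chr13:119690101-119690350, plus strand, Mvd at chr8:122443423-122443672, minus strand, Mvk at chr5:114444019-114444268, plus strand, Insig2 at chr1:121332590-121332839, minus strand (1 of 3 starts listed for Insig2), and Aacs at chr5:125475623-125475872, plus strand.
Hmgcs1: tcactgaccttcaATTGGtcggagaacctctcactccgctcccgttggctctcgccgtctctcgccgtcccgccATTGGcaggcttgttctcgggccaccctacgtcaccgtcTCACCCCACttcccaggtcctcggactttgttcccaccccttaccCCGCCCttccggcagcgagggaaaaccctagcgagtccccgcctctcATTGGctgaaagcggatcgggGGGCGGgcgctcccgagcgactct
Mvd: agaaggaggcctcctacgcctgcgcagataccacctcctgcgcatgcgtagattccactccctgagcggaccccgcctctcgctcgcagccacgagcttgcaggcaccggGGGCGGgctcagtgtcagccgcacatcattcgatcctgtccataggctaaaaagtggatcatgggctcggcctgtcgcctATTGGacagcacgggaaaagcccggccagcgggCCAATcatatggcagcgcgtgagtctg
Mvk: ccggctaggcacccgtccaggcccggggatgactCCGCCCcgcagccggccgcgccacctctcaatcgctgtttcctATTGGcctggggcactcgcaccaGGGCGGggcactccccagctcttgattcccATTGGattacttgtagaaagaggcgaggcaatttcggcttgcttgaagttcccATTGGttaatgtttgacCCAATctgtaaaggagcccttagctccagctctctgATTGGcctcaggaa
Insig2: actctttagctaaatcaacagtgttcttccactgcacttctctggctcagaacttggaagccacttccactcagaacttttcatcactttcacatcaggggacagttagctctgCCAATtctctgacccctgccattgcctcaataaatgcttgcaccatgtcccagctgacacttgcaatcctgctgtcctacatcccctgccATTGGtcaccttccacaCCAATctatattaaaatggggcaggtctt
Aacs: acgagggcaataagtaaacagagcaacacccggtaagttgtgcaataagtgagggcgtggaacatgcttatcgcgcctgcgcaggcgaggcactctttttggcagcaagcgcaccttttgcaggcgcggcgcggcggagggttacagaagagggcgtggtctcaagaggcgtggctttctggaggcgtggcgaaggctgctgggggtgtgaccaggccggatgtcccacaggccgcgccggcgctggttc

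The Hmgcs1 window held the only TCACNCCAC match, 137 to 129 bases before the start, between CCAAT matches. Mvk held 5 CCAAT and 2 GGGCGG matches, and Mvd held 2 and 1. The Aacs window held none of the 3 motifs, although Aacs was among the genes with the largest falls. The Insig2 window shown held 3 CCAAT matches, while each other start listed for Insig2 held no CCAAT match and 1 GGGCGG match.

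Neomycin gave the median change of the 30 genes nearest to 0 of any treatment in the main fit, for the mean of its routes. No member was called for the mean of its routes (2.34% of all genes were), the median change was 0.09, beside 0.04 for all genes, and 9 of 19 enzymes were below 0. The median was -0.02 with quantile normalization and -0.0084 with rescaling without mitochondrial genome genes. With the muscle and Hox scores as covariates it was 0.07, and that of the mix, at 0.0069, was nearer to 0. In the main fit of neomycin Srebf2 had the smallest adjusted p, with a change of 0.29 (95% interval 0.12 to 0.46, limma adjusted p = 0.0547). No member was called by mouth, by the peritoneum or by the vein, beside 0.0176%, 0.603% and 0.544% of all genes. The enzyme median was -0.26 by mouth, 0.06 by the peritoneum and 0.20 by the vein, with 17, 5 and 6 of 19 enzymes below 0. 3 of 19 enzymes were below 0 in all 3 routes, beside 11.6% of all genes. No member differed between the routes of neomycin, beside 0.0878% of all genes.

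Ampicillin and neomycin libraries were compared directly, without PBS. 12 of the 30 members were lower with ampicillin and none higher, beside 2.8% of all genes that were lower. All 12 were synthesis enzymes: Acat2, Hmgcs1, Aacs, Mvk, Mvd, Idi1, Fdft1, Sqle, Lss, Cyp51, Msmo1 and Hsd17b7. Aacs differed most, by -1.29 (SE 0.16, limma adjusted p = 4.72e-09), with 85.1 ± 32.3 TPM (SD, n = 17) in neomycin and 34.7 ± 12.8 TPM (SD, n = 18) in ampicillin. Mvd differed by -1.11 (SE 0.17, limma adjusted p = 2.12e-06), Cyp51 by -0.98 (SE 0.18, limma adjusted p = 9.47e-05) and Hmgcs1 by -0.80 (SE 0.15, limma adjusted p = 5.57e-05). Acat2 (-0.48, limma adjusted p = 0.0233) was not called without Neomycin-IV replicate 4 or 5 or Neomycin-PO replicate 5 (limma adjusted p up to 0.0597), and the other 11 were called in each of the 35 fits that left out 1 library.

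Vancomycin lowered 7 of the 19 enzymes, at 7.4% of all genes that fell. Mvd fell by 0.78 (SE 0.19, limma adjusted p = 0.00244): its mean went from 47.3 ± 17.6 TPM (SD, n = 15) with PBS to 26.9 ± 9.30 TPM (SD, n = 15), and all 15 vancomycin libraries were below the PBS median. Mvk fell by 0.52 (limma adjusted p = 0.00986), Tm7sf2, a sterol C14 reductase, by 0.46 (0.0188), Nsdhl by 0.35 (0.0286), Fdft1 by 0.43 (0.0306), Fdps by 0.43 (0.0317) and Aacs by 0.49 (0.035). 16 of 19 enzymes were below 0 in all 3 routes, beside 24% of all genes, against the PBS libraries that also served the other drugs. Insig2 rose by 1.26 (SE 0.22, limma adjusted p = 8.95e-05), 1 of 30 members beside 18.6% of all genes that rose. It lay between 46.6 and 128.5 TPM (median 82.1) with vancomycin, and 10 of 15 libraries were above the highest PBS library.

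Several of these vancomycin calls were lost in other fits. Aacs, Fdps, Fdft1 and Nsdhl each lost their call in 5 to 12 of the 30 fits without 1 library (limma adjusted p up to 0.0738), while Mvk, Mvd, Tm7sf2 and Insig2 were called in all. Without the 12 late columns, 8 of them Vancomycin libraries, Insig2 was called (1.23, limma adjusted p = 0.0346) and the 7 enzymes were not. Their changes in this smaller fit were -0.72 for Mvd (limma adjusted p = 0.0842), -0.49 for Mvk (0.14), -0.50 for Tm7sf2 (0.127), -0.42 for Aacs (0.277), -0.37 for Fdft1 (0.237), -0.33 for Fdps (0.299) and -0.28 for Nsdhl (0.27), all of the same sign as with all libraries.

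Markers of several cell types moved with vancomycin. 17 of 18 smooth muscle genes rose (summed level 6124 to 107200 TPM, beside 10830 to 75710 TPM with PBS) and 5 of 6 fibroblast genes rose. 3 of 8 goblet cell genes fell (median -1.25), 3 of 12 surface colonocyte genes fell (median -0.62), 1 of 8 epithelial and 1 of 10 proliferation genes fell, and 1 of 9 macrophage genes rose. Of all genes 18.6% rose and 7.4% fell, so that the lists with 1 called gene were near or below these shares. With the muscle score and a score of 5 posterior Hox genes as covariates, Mvd, Fdps and Insig2 were called, and the others changed by -0.38 (Mvk), -0.30 (Aacs), -0.28 (Fdft1), -0.23 (Nsdhl) and -0.20 (Tm7sf2). With a score of 8 epithelial genes, added after the data were seen, 3 members were called and Tm7sf2 changed by -0.27. The part of each cell type in the result was not tested.

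Vancomycin given by the peritoneum raised Insig2 and Scap, 2 of 30 members in a comparison that called 19% of all genes. Insig2 was 26.2, 29.9, 36.8 and 20.2 TPM in PBS-IP and 106.2, 119.8, 107.8 and 76.3 TPM in Vancomycin-IP. The groups did not overlap, as for 22.9% of all genes above PBS, and Insig2 rose by 1.84 (SE 0.43, limma adjusted p = 0.00643). The same 4 PBS-IP libraries served all IP comparisons, and the Insig2 median of all 15 PBS libraries was 36.8 TPM. Insig2 was also above every PBS-IP value in 5 of 6 Ampicillin-IP and 4 of 6 Neomycin-IP libraries. Scap rose by 0.83 (SE 0.29, limma adjusted p = 0.0376), and lost its call without any 1 of PBS-IP replicates 1, 2 and 3 and Vancomycin-IP replicates 1, 2 and 3 (limma adjusted p up to 0.134). Without the late columns the changes were 1.89 for Insig2 and 1.13 for Scap and neither was called (limma adjusted p = 0.285 and 0.286). That fit has 1 Vancomycin-IP library, which is assumed to vary like the other groups. Neither was called with the muscle and Hox scores as covariates (changes 1.34 and 0.56, limma adjusted p = 0.0839 and 0.484). Tm7sf2 was lower in every Vancomycin-IP library than in every PBS-IP library, 1 of 30 members, which is below the 7.72% of all genes. Pmvk was lower in every Vancomycin-IV library than in every PBS-IV library, 1 of 30 members beside 0.369% of all genes. By mouth and by the vein no member was called, beside 0.176% and 0.258% of all genes, and the test between routes called no member and 0% of all genes.

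The mix of the 4 drugs lowered 3 of 19 enzymes and raised 4 other members, beside 3.27% of all genes lower and 4.69% higher. Mvd fell by 0.64 (limma adjusted p = 0.0192), Mvk by 0.46 (0.0347) and Fdps by 0.44 (0.0433). Srebf2 rose by 0.34 (SE 0.09, limma adjusted p = 0.00798), Scap by 0.47 (0.0281), Insig2 by 0.69 (0.0318) and Npc1 by 0.44 (0.0419). Mvd and Srebf2 were called in each of the 33 fits without 1 library, and the other 5 each lost their call in 6 to 20 of them (limma adjusted p up to 0.0919). Without the late columns Srebf2 was called, and the other 6 were not, with changes of -0.58 for Mvd, -0.52 for Mvk, -0.47 for Fdps, 0.49 for Scap, 0.69 for Insig2 and 0.51 for Npc1 (limma adjusted p from 0.0553 to 0.0989). With the muscle and Hox scores as covariates Mvd and Srebf2 were called, and the other 5 changed by -0.32 (Mvk), -0.30 (Fdps), 0.36 (Scap), 0.49 (Insig2) and 0.29 (Npc1).

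Cell markers also moved with the mix. 2 of 10 crypt proliferation genes fell (median -0.80), 1 of 8 goblet cell genes fell (median -0.71) and 1 of 12 surface colonocyte genes fell (median 0.36). Of all genes 3.27% fell. None of the 5 posterior Hox genes was called, with a median of -1.22 and a summed level of 8.2 to 829.7 TPM, beside 13.9 to 689.4 TPM with PBS. None of 18 smooth muscle genes was called (median 0.18). The part of these in the result was not tested.

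In Mix-PO every Srebf2 value (182.6 to 226.8 TPM, median 205.6) was above every PBS-PO value (123.5 to 180.4 TPM, median 147.9), beside 0.714% of all genes. In Mix-IP the same held for Scap and Insig2, beside 1.33% of all genes, against the PBS-IP libraries that also served the other drugs. Even so, no member was called in Mix-PO, Mix-IP or Mix-IV (0.252%, 0.275% and 0% of all genes were called), with 6, 12 and 1 of 30 members at an unadjusted p under 0.05, beside 10.9%, 14.6% and 5.6% of all genes. 5 of 19 enzymes were below 0 in all 3 routes, beside 19.2% of all genes, and the test between routes called no member and 0% of all genes. The enzyme median was -0.03 in Mix-PO, -0.58 in Mix-IP and -0.02 in Mix-IV.

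Metronidazole gave changes of mostly 1 sign, none of which passed the test. 28 of 30 members were below 0 for the mean of its routes, beside 42.1% of all genes, with a median of -0.32, and no member was called (0.398% of all genes were), while 11 had an unadjusted p under 0.05, beside 9.48% of all genes. Lss changed by -0.63 (95% interval -0.97 to -0.28, limma adjusted p = 0.0892) and Dhcr7 by -0.92 (-1.48 to -0.36, limma adjusted p = 0.17). 16 of 19 enzymes were below 0 in all 3 routes, beside 15.7% of all genes, against the PBS libraries that also served the other drugs. By each single route no member and 0% of all genes were called, and the test between routes also called no member and 0% of all genes. Insig2 in Metronidazole-IP was above every PBS-IP value, 1 of 30 members, which is below the 5.68% of all genes. The PBS-IP libraries also served the other drugs.

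The other drugs were set against ampicillin directly. Against metronidazole, Mvd (-0.84, SE 0.19, limma adjusted p = 0.00231), Aacs (-0.74, limma adjusted p = 0.00444) and Fdft1 (-0.53, limma adjusted p = 0.0142) were lower with ampicillin, beside 2.51% of all genes. Insig2 (0.93, limma adjusted p = 0.00417), Scap (0.58, limma adjusted p = 0.00764) and Dhcr7 (0.84, limma adjusted p = 0.0386) were higher, beside 4.51% of all genes. Fdft1 was not called without Metronidazole-IP replicate 4 (limma adjusted p = 0.0517), and Dhcr7 in 8 of the 32 fits without 1 library (up to 0.122).

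Against the mix, Aacs (-0.97, limma adjusted p = 2.01e-05), Lss (-0.80, limma adjusted p = 0.000358), Hmgcs1 (-0.57, limma adjusted p = 0.0228) and Cyp51 (-0.68, limma adjusted p = 0.0374) were lower with ampicillin, beside 0.539% of all genes. Hmgcs1 was not called without Mix-IV replicate 1, Mix-PO replicate 5 or 6 or Mix-IP replicate 6 (limma adjusted p up to 0.0643), and Cyp51 in 16 of 36 such fits (up to 0.0926). Against vancomycin no member was called, beside 2.3% of all genes, with 9 of 30 at an unadjusted p under 0.05, beside 20% of all genes. Idi1 came nearest, at -0.51 (95% interval -0.85 to -0.16, limma adjusted p = 0.0886). With the muscle and Hox scores as covariates 6 members were called in this comparison, 5 of them lower with ampicillin.

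Other genes of sterol and fatty acid metabolism, in 4 lists, mostly stayed under the threshold where the synthesis enzymes fell. With ampicillin none of 16 genes of fatty acid synthesis driven by SREBP-1 was called (median 0.07). Acss2, which makes cytosolic acetyl-CoA, came nearest at -0.67 (limma adjusted p = 0.0566). None of 12 genes of the oxysterol receptor LXR and its targets was called. Of 13 genes of the isoprenoid branch 1 rose, the methyltransferase Icmt (0.39, limma adjusted p = 0.00092), and of 20 sterol transport genes 1 rose, Apob, the core protein of chylomicrons (1.68, SE 0.44, limma adjusted p = 0.00937). Both counts are near the 5.13% of all genes that rose.

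Genes of these lists were also called with vancomycin and the mix. With vancomycin 3 genes of fatty acid synthesis rose (Elovl5, Fads1 and Me1) and 2 fell, Fasn by 0.72 (limma adjusted p = 0.00177) and Acss2 by 0.68 (limma adjusted p = 0.0306), of 16 genes, where 18.6% of all genes rose and 7.4% fell. Of 12 LXR genes 1 rose and 2 fell, of 13 isoprenoid genes 2 rose and 2 fell, and of 20 sterol transport genes 3 rose and 2 fell. The 2 LXR genes that fell were the sterol exporters Abcg5 and Abcg8, which fell by 1.29 (limma adjusted p = 0.0337) and 1.03 (limma adjusted p = 0.0242). Both were higher with ampicillin than with vancomycin, by 1.88 (limma adjusted p = 0.0148) and 1.60 (limma adjusted p = 0.00564). With the mix Acly and Acss2 fell, by 0.64 (limma adjusted p = 0.0496) and 0.70 (limma adjusted p = 0.0454), while Apob and Npc1l1, which takes up sterol from the gut lumen, rose by 1.68 (limma adjusted p = 0.0104) and 1.27 (limma adjusted p = 0.0137). These were 2 of 16 genes of fatty acid synthesis and 2 of 20 of sterol transport, where 3.27% of all genes fell and 4.69% rose. Of 12 LXR genes 1 rose with the mix, and of 13 isoprenoid genes 2 rose and 2 fell.

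Other markers also moved with ampicillin. Of 8 goblet cell genes 3 fell (median -1.23, summed level 385.4 to 16480 TPM with ampicillin and 632.1 to 24490 TPM with PBS), of 10 crypt proliferation genes 2 fell (median -0.62), and of 8 epithelial genes 1 fell (median -0.25). Of all genes 2.75% fell. None of 18 smooth muscle genes was called (median 0.70, summed level 7320 to 115900 TPM, beside 10830 to 75710 TPM with PBS). With the epithelial score as a covariate 12 members fell and 1 rose, beside 2.9% of all genes that fell, and with the muscle and Hox scores 12 fell and 1 rose, beside 4.52%. In both fits 13 of the 14 called genes were called again, and Scap was not (limma adjusted p = 0.0652 and 0.0898). The part of goblet cells and proliferation was not tested.

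Genes of the daily clock moved too. Of the 4 clock genes looked at, which were chosen with their values known, Dbp fell by 2.69 (SE 0.27, limma adjusted p = 1.01e-11), Ciart fell by 2.21 (limma adjusted p = 3.38e-11) and Nr1d1 fell by 0.41 (limma adjusted p = 0.0174) with ampicillin, while Arntl rose by 1.69 (limma adjusted p = 3.87e-06). All 4 were called with vancomycin too. Dbp changed by -2.15 (limma adjusted p = 1.77e-07), Ciart by -2.42 (2.06e-11), Nr1d1 by -0.55 (0.00125) and Arntl by 1.15 (0.0018). With neomycin, where no member was called, Dbp fell by 1.23 (limma adjusted p = 0.00255), Ciart fell by 1.27 (limma adjusted p = 0.000141) and Arntl rose by 1.04 (limma adjusted p = 0.0114). With metronidazole Ciart fell by 1.35 (limma adjusted p = 0.000982), and with the mix none of the 4 was called. Dbp was also lower with ampicillin than with neomycin, by -1.45 (limma adjusted p = 4.9e-05). The hour at which each group's tissue was taken is not given in the sources used here, and its part in the result was not tested.

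Within groups the synthesis enzymes varied together. After group means were removed, the 171 pairs of the 19 enzymes had a median Pearson r of 0.65 over the 97 libraries (0.01 to 0.92), given as a description with no test, since libraries share tissue makeup and depth is unknown. The 55 pairs of the other 11 members had a median r of 0.09. Insig1 followed the enzymes (r = 0.83 with Sqle), while Insig2 did not (r = -0.04 with Sqle and -0.33 with Mvd). Stard4 followed the epithelial score (r = 0.87), and so did Ebp (0.75) and Cyp51 (0.73). Abca1 and Abcg1 followed the muscle score (r = 0.64 and 0.53). Soat1 and Npc1 followed the posterior Hox score in opposite directions (r = 0.79 and -0.63). Hmgcs1, Acat2, Fdps and Sqle had an r between -0.06 and 0.14 with the muscle score and between 0.415 and 0.627 with the posterior Hox score. Their r with the epithelial score lay between 0.0381 and 0.321. Mvd, Fdft1 and Aacs, which also fell with ampicillin, had a higher r with the epithelial score (0.613, 0.444 and 0.434). Their r with the muscle score was -0.341, -0.246 and -0.293. The mean epithelial score was 8.78 with ampicillin (SD 0.928, n = 18) and 9.18 with PBS (SD 1.05, n = 15).

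**Figure D4:**
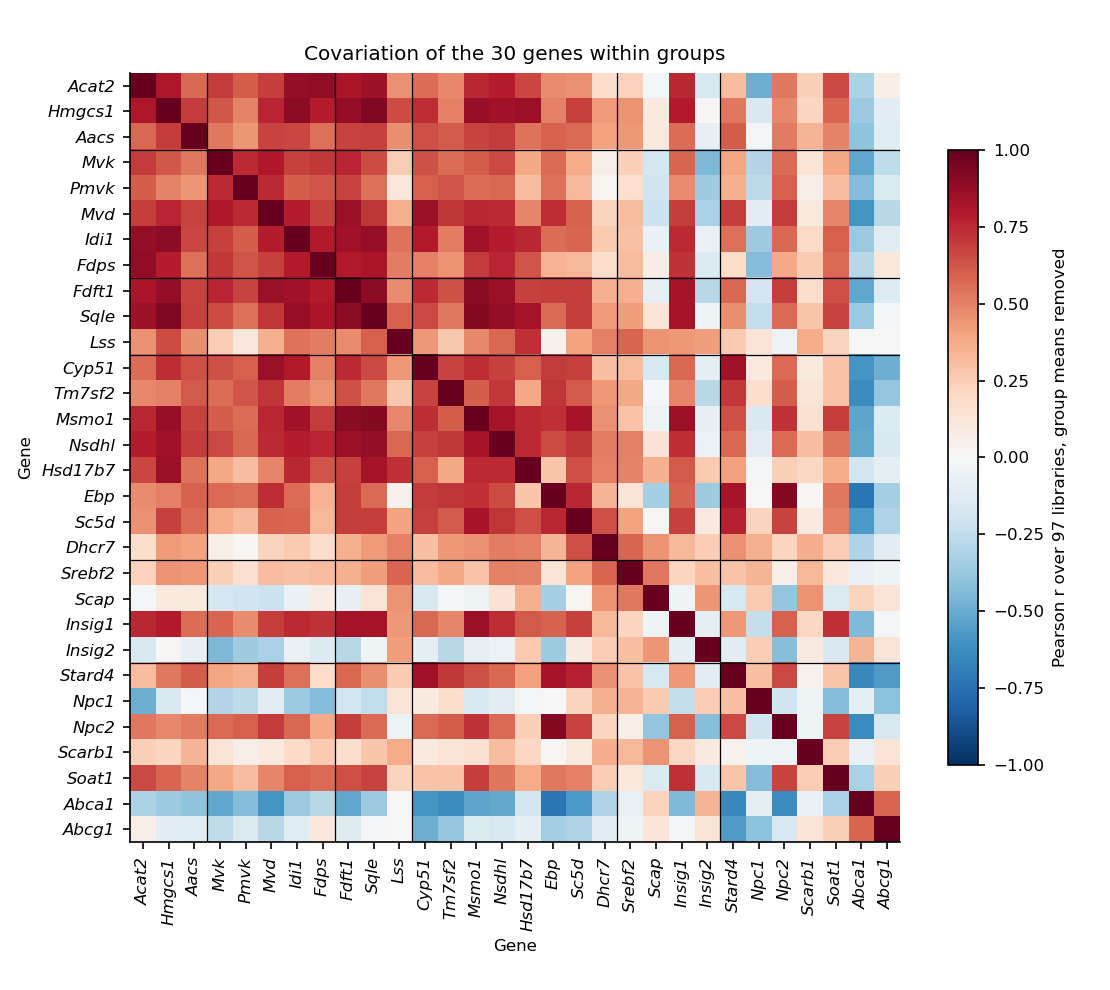
Pearson r between the 30 genes over the 97 libraries after removal of group means, both axes in pathway order with black lines between roles (red positive, blue negative). The enzymes form a red block with a median r of 0.65, in which Lss and Dhcr7 are paler, and Insig1 joins it while Insig2, Scap, Abca1 and Abcg1 do not.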

How the data were processed

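Whole mouse colon was profiled by poly(A) RNA sequencing with single-end reads of 75 cycles, per the labels' protocols. The authors deposited 1 table of TPM per gene. The submitters' processing notes name Trim Galore 0.6.2, cutadapt 3.5, Salmon (version not given in the sources used here) and the genome build GRCm39. TPM values hold no counts, so depth is unknown and no count model was used. All 97 columns were matched to samples by their names.

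Genes with a TPM of 1 or more in at least 4 libraries were kept. Log2(TPM + 1) was fitted with limma 3.58.1 (trend and robust, R 4.3.3) over all 18 groups, with Benjamini-Hochberg adjustment over all 17083 genes within each comparison. The 30 members, the lists and the tests were chosen with earlier results of these data known. Named genes were all called members, up to 4 uncalled members with the smallest p per comparison, and up to 4 genes of each list. Values for every library are given for members called most often. Scores are mean log2(TPM + 1) of marker lists. The replicate numbers of the labels did not pair the groups: in none of 15 comparisons did every same-numbered pair correlate above 0.1. The fit was tested on simulated data. 1 further list of pathway genes is not reported here. Promoters came from RefSeq (build GRCm38.p6). Lists of macrophage, B cell, neuron and glia, adipocyte, surface colonocyte, fibroblast and pancreas or liver genes were also checked with ampicillin: of the macrophage list 1 gene rose and 1 fell, and none of the other lists had a called gene. Of all genes 5.13% rose and 2.75% fell with ampicillin. Alternatives tried were a pseudocount of 10, no filter, 2 other scalings, array weights, covariates, the replicate block, smaller fits and fits without libraries.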

Additional observations from a re-analysis of the deposited data

Results flagged for a closer look

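Within groups of 4 to 6 libraries, 10 of 180 gene and group pairs, over the 10 members followed most closely, had a value that lay apart from the rest of their group by Dixon's test at 95%, which sets apart about 1 group in 20 by chance, so that the number is near what chance gives. Low values were Mvd at 15.4 TPM in Vancomycin-IP replicate 2 (the other 3 at 33.6 to 34.7), Fdps at 36.5 TPM in Ampicillin-IV replicate 5 (others 56.8 to 73.1), Scap at 33.2 TPM in Vancomycin-IP replicate 4 (others 65.4 to 74.6), and Lss at 15.3 TPM in Metronidazole-IV replicate 1, 14.5 TPM in Mix-IV replicate 4 and 16.7 TPM in Neomycin-PO replicate 1. High values were Fdps at 158.4 TPM in Neomycin-IP replicate 6 (others 93.9 to 106.5), Scap at 62.3 TPM in Metronidazole-PO replicate 3 (others 25.7 to 34.8), Fdft1 at 73.2 TPM in Ampicillin-PO replicate 1 (others 46.5 to 54.1) and Nsdhl at 31.4 TPM in PBS-IV replicate 5 (others 20.3 to 22.9). In Vancomycin-IP the low Mvd and the low Scap value came from different libraries. Neomycin-IP replicate 6 also held the highest value of 8 of the 30 genes over all libraries.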

How the results depend on the processing

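No called value changed sign under the alternatives run. With the muscle and Hox scores the median change of the members against PBS went from -0.36 to -0.27 for ampicillin and from -0.32 to -0.22 for metronidazole. It went from -0.28 to -0.12 for vancomycin, from -0.15 to 0.0069 for the mix and from -0.40 to -0.26 for ampicillin against neomycin. With the epithelial score it was -0.26 for ampicillin, -0.25 for metronidazole, -0.10 for vancomycin, -0.16 for the mix and -0.25 for ampicillin against neomycin. For ampicillin against PBS (14 called for the mean of the routes) the count was 11 to 18 under the alternatives and 12 to 15 without 1 library, and for ampicillin against neomycin (12) it was 11 to 13 without 1 library. Array weights gave the largest counts: 11, 14 and 1 called for Ampicillin-PO, -IP and -IV, 1 for Neomycin-IP, 21 and 4 for Vancomycin-IP and -IV, 6 and 22 for Mix-PO and -IP, 1, 1, 17 and 17 for the means of metronidazole, neomycin, vancomycin and the mix, 11, 21, 13 and 11 for ampicillin against metronidazole, neomycin, vancomycin and the mix, and 1 and 9 for the tests between routes of vancomycin and the mix. The cause was not tested. A pseudocount of 10 gave 1 called in Ampicillin-IP and 1 for the neomycin mean. Rescaling without mitochondrial genome genes gave 5 in Ampicillin-IP and 11 for the mix mean, and quantile normalization gave 1, 7, 1 and 13 for Ampicillin-IP, Vancomycin-IP and the means of metronidazole and vancomycin. With muscle and Hox scores as covariates 5, 2 and 0 were called in Ampicillin-IP, Ampicillin-IV and Vancomycin-IP, 1, 1, 3 and 2 for the means of metronidazole, neomycin, vancomycin and the mix, and 6 and 7 for ampicillin against vancomycin and the mix. With the epithelial score, chosen after seeing the data, 1, 6, 1, 1 and 2 were called in Ampicillin-PO, -IP, -IV, Vancomycin-IP and Mix-IP, 1, 3 and 11 for the means of neomycin, vancomycin and the mix, and 5 for ampicillin against vancomycin. The replicate block gave 5 called in Ampicillin-IP and 1 in Mix-IP, and ended the call of Dhcr7 against metronidazole (adjusted p = 0.0529). It changed no other call of a named member, and same-numbered libraries correlated between -0.696 and 0.837. Fitting only the groups compared gave 0 in Ampicillin-PO, 5 in Vancomycin-IP and 1 for ampicillin against vancomycin. Without the late columns 0, 1 and 1 were called in Vancomycin-IP and for the means of vancomycin and the mix. Without 1 library the counts ran from 0 to 2 in Ampicillin-PO, 0 to 7 in Ampicillin-IP, 1 to 4 in Vancomycin-IP, 0 to 5 in Mix-IP, 0 to 1 for the metronidazole mean, 0 to 1 for the neomycin mean, 4 to 11 for the vancomycin mean, 2 to 11 for the mix mean, 4 to 7 for ampicillin against metronidazole and 2 to 6 for ampicillin against the mix. With depth unknown, no floor can be set for low values.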
